A study of Mus musculus with 27 samples.

Results

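The elastic fibre genes followed here are 10 genes of the mouse, namely elastin (Eln), the fibrillins Fbn1 and Fbn2, the fibulins Fbln1, Fbln2, Fbln5, Efemp1 and Efemp2, and the microfibril-associated proteins Mfap4 and Mfap5. They were chosen by name, from the structural proteins of the elastic fibre, with earlier results of these data known. All 10 were found among the 53379 genes of the count table. The RNA came from hepatic stellate cells (HSCs), the vitamin A-storing mesenchymal cells of the liver, of male Balb/c mice, isolated by sorting for the ultraviolet signal of stored retinoid and collected without culture. Liver injury was caused by carbon tetrachloride (CCl4), which poisons hepatocytes, given into the peritoneum in mineral oil at 0.5 µL for each g of body weight. In all, the 27 libraries form 7 groups. The healthy group (n = 4) came from mice aged 10 to 12 weeks that were not injected, so that no group received oil alone. The acute groups came from mice of the same age 24 h (n = 3), 72 h (n = 4) or 7 d (n = 4) after 1 injection. The chronic groups came from mice aged 8 to 10 weeks at the start, which received 8 injections over 4 weeks and gave cells 24 h, 72 h or 14 d after the last one (n = 4 each). All groups share the strain, the sex and the sort, and the sort selects for cells that still hold retinoid. Markers of other cell types were still detected in the libraries, as given below.

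Elastic fibres give tissue its recoil. They have a core of elastin, secreted as a soluble precursor and cross-linked by lysyl oxidases, and a sheath of microfibrils built from fibrillins. Fibulins bridge the core and the sheath: the short fibulins Fbln5 and Efemp2 (fibulin-4) bring elastin and lysyl oxidases to the microfibrils, Efemp1 is fibulin-3, and the long fibulins Fbln1 and Fbln2 bind elastin and basement membrane proteins. Mfap4 and Mfap5 associate with microfibrils, which also hold latent TGF-beta through the latent TGF-beta binding proteins. In the liver, elastic fibres normally lie in portal tracts and vessel walls and build up in scars. Portal fibroblasts are known for elastin and fibulin-2, which bears on reading any sorted HSC library.

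Total counts ran from 6.31 M to 13.1 M per library. The 8 shallower libraries, at 7.58 M or less, were the whole chronic 14 d group and replicates 1 and 2 in chronic 24 h as well as in chronic 72 h, and the other 19 held at least 10.8 M. All 14 HSC markers, among them Lrat, Reln, Colec11 and Des, had more than 3 counts in a library of every group. Their summed level was 34538 to 53374 CPM (counts in every 1 M counts of a library) in healthy libraries, and was low in chronic 24 h (16116 to 18918 CPM) and in acute 72 h (17280 to 21806 CPM). The 10 portal fibroblast markers summed to 429 to 645 CPM in healthy and 1085 to 1720 CPM in chronic 72 h libraries, and none of them was at 0 throughout a group. The 7 mesothelial markers summed to 6.07 to 18.1 CPM in healthy and 100.5 to 151 CPM in chronic 72 h libraries, the latter holding the highest value of the series. In bulk RNA, fewer cells of a type and less RNA per cell cannot be told apart, and this holds for each level below.

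Levels are given as CPM with libraries scaled by edgeR's trimmed mean of M values (TMM), and every value is the library's own. Of the 10 genes, 9 passed the filter on low counts and were tested. Mfap5, a fibrillin-binding protein of microfibrils (ENSMUSG00000030116, chr6:122505845-122529290), did not. It had 11 counts in acute 7 d replicate 4, 6 or fewer in chronic 24 h replicate 1, in chronic 72 h replicate 4 and in replicates 1, 2 and 3 of chronic 14 d, and 0 in the remaining 21 libraries, where a count of 0 allows up to 3. Coordinates are those of GRCm38.

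Per kb of merged exon, the make-up of the set shifted between groups. Efemp1 was the most abundant member in healthy HSCs, at a mean of 322 CPM per kb, which is 68.2% of the summed level of the 10 genes. Fbln5 followed at 83.8 CPM per kb and Efemp2 at 38.2 CPM per kb, so that the 3 short fibulins led the set, with Eln next at 12.1 CPM per kb. This order depends on the length used. Before division by length, healthy means were 656 CPM for Efemp1 and 579 CPM for Fbln5, with merged exons of 2037 and 6911 bp. In chronic 72 h HSCs, Mfap4 came first, at 255 CPM per kb or 40.9% of the sum, against 6.57 CPM per kb and 1.39% in healthy cells. In chronic 24 h HSCs the share of Fbln2 was 12.2%, against 0.152% in healthy cells, and that of Fbln5 was 3.18%, against 17.7%. Efemp1 led in chronic 24 h with 24.3%, just ahead of Mfap4 at 23.8%, and in chronic 14 d with 51.4%. A share falls wherever other members rise, so these shares describe proportions and not the change of any gene.

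**Figure D1:**
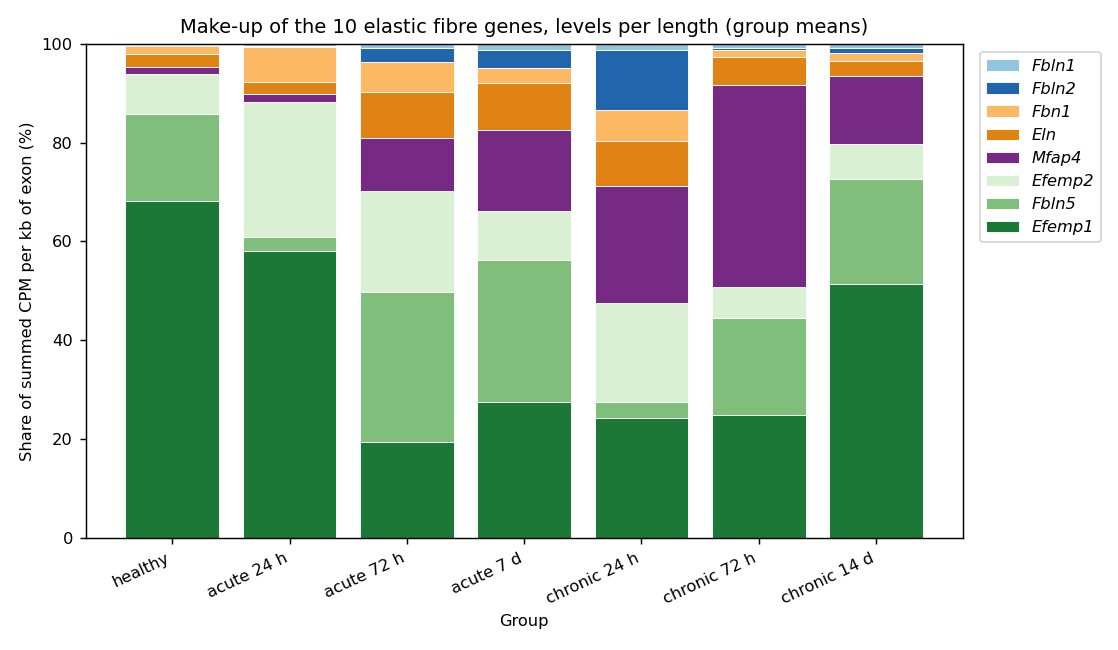
Stacked bars give, for each of the 7 groups, the share (%) of 8 genes in the summed CPM per kb of merged exon of the 10 elastic fibre genes, from group means; Fbn2 and Mfap5 are too low to be drawn. Efemp1 takes 68.2% in healthy and 19.4% in acute 72 h HSCs, and Mfap4 takes 1.39% in healthy and 40.9% in chronic 72 h HSCs.

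Elastin itself (Eln, ENSMUSG00000029675, chr5:134702593-134747323, minus strand) was lowest 24 h after a single injection. It stood at 92.1, 108, 127 and 64.6 CPM in the healthy libraries and at 36.8, 32.5 and 28.2 CPM in the acute 24 h libraries, with no overlap. It then read 159, 101, 289 and 342 CPM in acute 72 h and 343, 280.0, 399.9 and 347 CPM in acute 7 d libraries. Each acute 7 d library was above each healthy one, while acute 72 h replicate 2 lay within the healthy range. After the chronic course, Eln was at 148, 197, 215 and 213 CPM at 24 h, at 251, 200.2, 352 and 336 CPM at 72 h, and at 102, 97.4, 100.4 and 67.6 CPM at 14 d. Chronic 24 h and 72 h libraries were all above the healthy range and chronic 14 d libraries were all within it. In the order of group means, from acute 24 h through chronic 14 d, healthy, chronic 24 h, acute 72 h and chronic 72 h to acute 7 d, neighbours did not overlap between acute 24 h and chronic 14 d and between healthy and chronic 24 h, and overlapped at the other 4 steps. The exons of Eln share 267 bp with Gm30003 on the other strand, and whether the counting used strand is not given in the sources used here.

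**Figure D2:**
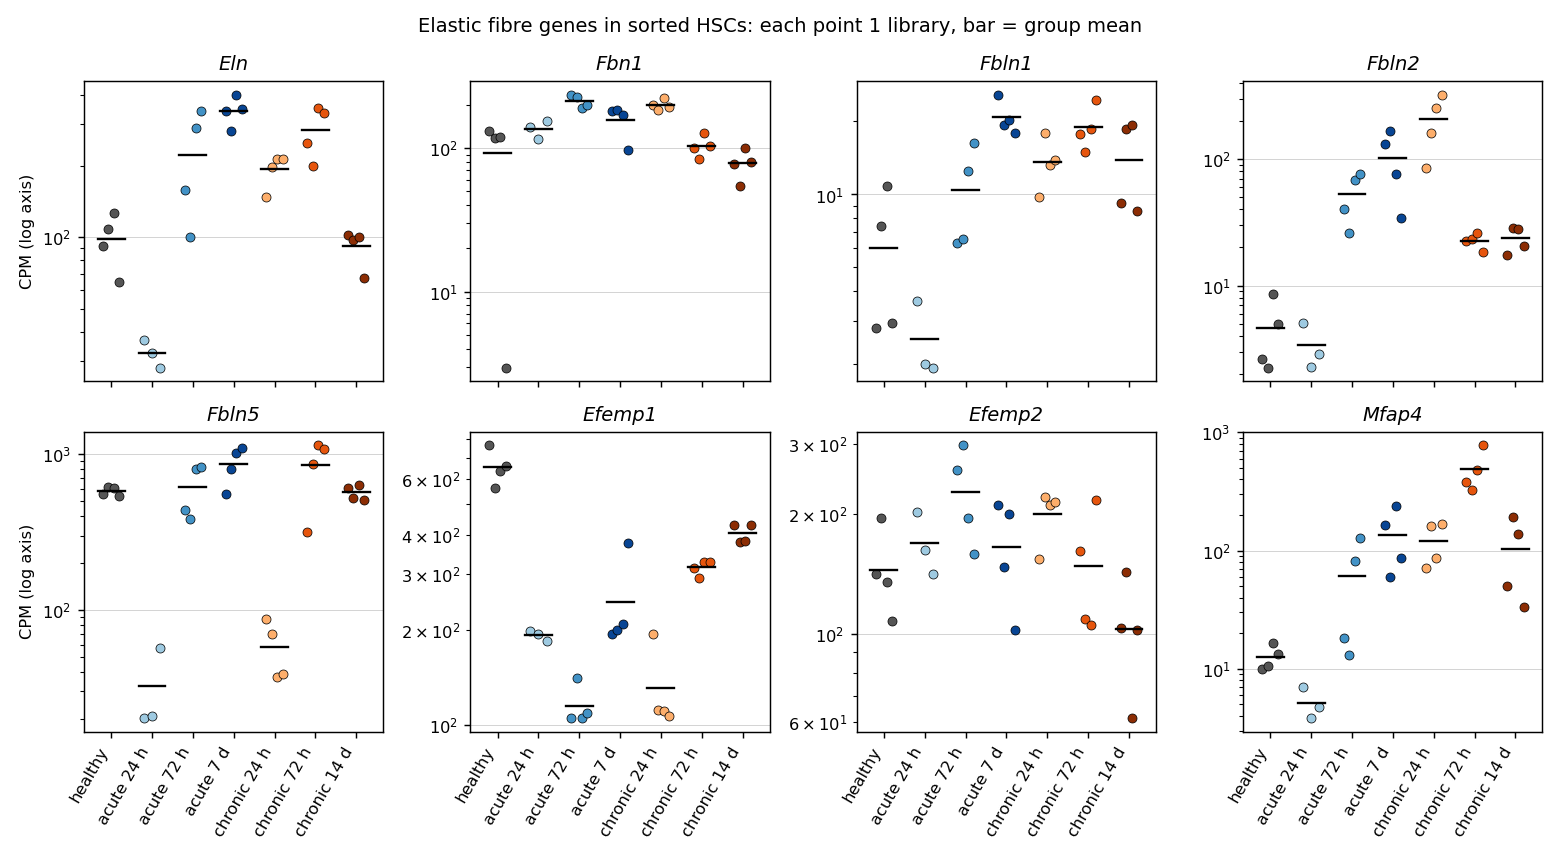
Each panel plots 1 elastic fibre gene, with the 7 groups on the x axis and CPM on a log axis; each point is 1 library and each bar a group mean. Fbln5 and Efemp1 sit lower in both 24 h groups than in healthy HSCs, Fbln2 peaks in chronic 24 h and Mfap4 in chronic 72 h libraries, and 1 healthy library stands far below the others for Fbn1, at 2.95 CPM.

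Of the fibrillins, the main building blocks of microfibrils, Fbn1 was far more abundant per length, at 7.69 CPM per kb in healthy HSCs against 0.0624 CPM per kb for Fbn2. Fbn1 (ENSMUSG00000027204, chr2:125300594-125507993, minus strand) was at 132, 117, 120.2 and 2.95 CPM in the healthy libraries. Replicate 4 held 34 Fbn1 counts where the other healthy libraries held 1204 to 1460, and each comparison of Fbn1 with healthy cells is given below with and without it. The acute libraries read 140.2, 116 and 155 CPM at 24 h, 236, 228, 191 and 199 CPM at 72 h, and 181, 185, 169 and 97.5 CPM at 7 d. The chronic libraries read 201, 186, 223 and 194 CPM at 24 h, 99.9, 83.4, 128 and 104 CPM at 72 h, and 77.9, 54.2, 101 and 80.5 CPM at 14 d. All acute 72 h and chronic 24 h libraries were above the healthy range. Fbn1 shares 2442 bp of exon with Gm9913 on the opposite strand, so its counts are less certain than those of the other members, and Gm9913 itself had 112 counts in healthy replicate 4. Fbn2 (ENSMUSG00000024598, chr18:58008623-58210487), the fibrillin best known from development, did not exceed 3.60 CPM in any library and was at 0 in 2 healthy and 2 chronic 14 d libraries.

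The long fibulins were low in healthy HSCs. Fbln2 (ENSMUSG00000064080, chr6:91212455-91272540), an elastin and basement membrane binder, stood at 2.63, 2.24, 8.51 and 4.94 CPM in healthy and at 5.07, 2.26 and 2.90 CPM in acute 24 h libraries, which overlapped. It read 40.4, 26.1, 68.4 and 75.9 CPM in acute 72 h and 132, 166, 76.5 and 33.9 CPM in acute 7 d libraries, and in both groups every library was above the healthy range. The chronic 24 h libraries held 85.4, 161, 253 and 323 CPM, the chronic 72 h libraries 22.7, 23.3, 25.8 and 18.3 CPM, and the chronic 14 d libraries 17.4, 28.3, 28.1 and 20.7 CPM. The chronic 24 h libraries were all above those of both later chronic groups, which overlapped each other and remained above the healthy range. Within chronic 24 h, the 2 libraries of lower depth were the lower ones. The group means of Fbln2 spanned 60.3-fold, from 3.41 CPM in acute 24 h to 205 CPM in chronic 24 h.

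Fbln1 (ENSMUSG00000006369, chr15:85205949-85286535), which binds fibronectin and elastin, did not exceed 25.8 CPM. It was at 2.81, 7.41, 10.9 and 2.95 CPM in healthy and at 3.65, 1.997 and 1.93 CPM in acute 24 h libraries. It read 6.29, 6.58, 12.5 and 16.3 CPM in acute 72 h and 25.8, 19.4, 20.4 and 17.9 CPM in acute 7 d libraries. The chronic libraries held 9.74, 17.8, 13.2 and 13.8 CPM at 24 h, 17.7, 15.0, 18.7 and 24.4 CPM at 72 h, and 9.18, 18.7, 19.4 and 8.52 CPM at 14 d. The acute 7 d and chronic 72 h libraries did not overlap with the healthy ones, while the other groups did. At each step of the order of its 7 group means, neighbouring groups overlapped.

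The short fibulins differed from one another. Fbln5 (ENSMUSG00000021186, chr12:101746565-101819055, minus strand), which tethers elastin to microfibrils and to integrins, was at 552, 612, 611 and 542 CPM in healthy and at 20.2, 20.7 and 57.1 CPM in acute 24 h libraries. At 72 h it read 442, 383, 800.3 and 831 CPM and at 7 d 552, 799, 1016 and 1094 CPM. After the chronic course it was at 87.1, 69.7, 37.2 and 38.9 CPM at 24 h, at 315, 865, 1142 and 1083 CPM at 72 h, and at 610.5, 520.1, 630.3 and 512 CPM at 14 d. Both 24 h groups lay below every other library of the series, the lowest of which was chronic 72 h replicate 1 at 315 CPM, and the range of every other group overlapped with the healthy one. Group means spanned 26.5-fold, from 32.7 CPM in acute 24 h to 865 CPM in acute 7 d. The 2 chronic 24 h libraries of lower depth were here the higher ones.

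Efemp1 (ENSMUSG00000020467, chr11:28853204-28926743), or fibulin-3, was highest in healthy HSCs, at 767, 564, 634 and 659 CPM. It read 199, 195 and 185 CPM in acute 24 h, 105, 141, 106 and 109 CPM in acute 72 h, and 194, 201, 209 and 376 CPM in acute 7 d libraries. The chronic libraries held 194, 112, 111 and 107 CPM at 24 h, 314, 292, 329 and 328 CPM at 72 h, and 429.8, 380.3, 382 and 429 CPM at 14 d. Every library of every injured group was below the lowest healthy library. In the order of group means, acute 72 h, chronic 24 h, acute 24 h, acute 7 d and chronic 72 h overlapped with their neighbours, while chronic 14 d stood clear of chronic 72 h below it and of healthy above it. Efemp2 (ENSMUSG00000024909, chr19:5473954-5482517), or fibulin-4, which recruits lysyl oxidase to elastin, varied least between groups. Its group means ran from 103 CPM in chronic 14 d to 227 CPM in acute 72 h, a span of 2.21-fold, neighbours in that order overlapped at every step, and its single libraries ran from 61.5 to 297 CPM. The healthy values were 141, 196, 135 and 108 CPM, and libraries of each injured group fell inside that range. Its exons share 173 bp with Mus81.

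Sequence upstream of the start is shown for these 3 fibulins, because 2 of them were lower at 24 h and the third was not. RefSeq start sites on GRCm38.p6 gave windows of 250 bases for 6 of the 10 members, and the 3 shown meet no annotated exon, as does 1 window of Fbln1 that is not shown. They are Fbln5 at chr12:101819120-101819369 on the minus strand, Efemp1 at chr11:28852955-28853203 on the plus strand, cut 1 base before an annotated exon, and Efemp2 at chr19:5473696-5473945 on the plus strand. Capitals mark matches, on either strand, to the motif of Sp1, GGGCGG, or to that of the AP-1 factors, TGANTCA, and no match overlaps another.
Fbln5: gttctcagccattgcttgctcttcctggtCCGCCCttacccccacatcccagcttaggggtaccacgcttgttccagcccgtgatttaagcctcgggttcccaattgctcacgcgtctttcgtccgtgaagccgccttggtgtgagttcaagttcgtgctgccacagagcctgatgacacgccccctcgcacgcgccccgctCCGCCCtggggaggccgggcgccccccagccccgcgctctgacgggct
Efemp1: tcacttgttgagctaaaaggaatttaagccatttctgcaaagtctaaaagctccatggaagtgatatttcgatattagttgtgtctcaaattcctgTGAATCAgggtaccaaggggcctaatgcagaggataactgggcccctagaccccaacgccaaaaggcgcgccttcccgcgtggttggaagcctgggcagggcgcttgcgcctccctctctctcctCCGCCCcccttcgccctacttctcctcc
Efemp2: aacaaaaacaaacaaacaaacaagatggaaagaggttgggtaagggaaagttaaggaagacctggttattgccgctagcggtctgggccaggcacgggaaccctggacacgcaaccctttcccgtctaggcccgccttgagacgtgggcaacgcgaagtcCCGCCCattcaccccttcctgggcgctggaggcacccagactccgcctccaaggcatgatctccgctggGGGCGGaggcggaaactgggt
All 3 windows hold GGGCGG, which 32.7% of the 32851 windows of this length in the table hold. That of Efemp1 also holds TGANTCA, found in 6.75% of windows, starting 154 bases before the start site. Of the other letters searched, CAGACA (SMAD), present in 17.1% of all windows, was in none of the 3. The Fbln1 window not shown holds 1 match to it, as does another Fbln5 window that meets annotated exons. The TEAD motif, GGAATG, was also in none of the 3 shown, and is present in 12.6% of windows. The TATA box, TATAAA, present in 12.4%, was not found in them either. Such matches describe letters and not binding.

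Mfap4 (ENSMUSG00000042436, chr11:61485431-61488900), a fibrinogen-domain protein that binds fibrillin and elastin, had the widest span of group means, 94.9-fold. It was at 9.97, 10.6, 16.5 and 13.4 CPM in healthy and at 6.94, 3.82 and 4.74 CPM in acute 24 h libraries, without overlap. It read 18.3, 13.2, 82.0 and 128 CPM in acute 72 h and 163, 59.2, 236 and 86.8 CPM in acute 7 d libraries. The chronic libraries held 70.8, 161, 85.7 and 166 CPM at 24 h, 381, 324, 479 and 778 CPM at 72 h, and 50.0, 191, 138 and 33.2 CPM at 14 d. All 12 chronic libraries were above the healthy range, and the chronic 72 h libraries were above every other library of the series. Acute 72 h replicate 2 lay within the healthy range, and replicates 3 and 4 of that group were also the higher ones for Eln, Fbln1, Fbln2 and Fbln5.

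The comparisons used 1 edgeR quasi-likelihood model over all 27 libraries and 18758 genes. A call needed both an adjusted p (Benjamini-Hochberg) under 0.05 and more than a 2-fold difference, and changes are log2 fold changes with their standard errors (SE). The 6 comparisons with healthy HSCs share the same 4 healthy libraries. Of the 14 HSC markers, 9 were called lower in chronic 24 h (8.11% of all genes), 8 in chronic 72 h (4.2%) and 3 in chronic 14 d (1.17%). In the acute groups 6 were called lower at 24 h (12.5%), 7 at 72 h (4.33%) and 7 at 7 d (5.64%). In chronic 24 h 1 was called higher (11.2%), and 0 in any other group. The part of these markers in the results was not tested. Healthy replicate 4 stood apart in more than Fbn1. It had counts for 18807 genes, the fewest of the 27 libraries, against 22499 to 26162 in the other healthy ones. Its hepatocyte markers summed to 3143 CPM, against 526 to 909 CPM in those. Without it, calls over all genes went from 1073 to 1706 in chronic 14 d and from 4118 to 4078 in acute 24 h against healthy. In this model Fbn1, Fbn2 and Efemp2 were called in none of the 11 comparisons. Their adjusted p values reached no lower than 0.0147, for Efemp2 in chronic 14 d against chronic 24 h, at a log2 change of -0.96. Calls of Fbn1 and Efemp2 under other settings are given below.

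In acute 24 h HSCs, elastin and 3 fibulins were lower. Fbln5, Efemp1, Eln and Fbln1 were called lower and no member higher, that is 4 of 9 and 0 of 9, where 12.5% and 9.41% of all genes tested were called. Fbln5 fell by 4.15 on the log2 scale (SE 0.48, adjusted p 7.78e-07), Efemp1 by 1.77 (SE 0.22, adjusted p 2.39e-06) and Eln by 1.59 (SE 0.32, adjusted p 0.00042). The call for Fbln1 (log2 change -1.25, adjusted p 0.034) was lost without healthy replicates 2 or 3 or acute 24 h replicates 2 or 3, the adjusted p then lying between 0.0752 and 0.177. Mfap4 had a log2 change of -1.29 (adjusted p 0.165). The median change of the 9 members was -1.25, against -0.12 over all genes. Portal fibroblast markers summed to 628 to 749 CPM here, with 1 of 10 called higher and 3 lower, and their part in the result was not tested.

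By acute 72 h the set had split. Fbln2, Mfap4 and Eln were called higher (3 of 9, against 8.23% of all genes) and Efemp1 was called lower (1 of 9, against 4.33%). Fbln2 rose by 3.52 (SE 0.51, adjusted p 2.95e-05) and Efemp1 fell by 2.51 (SE 0.21, adjusted p 3.5e-08). The calls for Eln (1.18, adjusted p 0.0038) and Mfap4 (2.25, adjusted p 0.0122) rested on acute 72 h replicate 4. Without it Eln stood at 0.89 (adjusted p 0.024) and Mfap4 at 1.56 (adjusted p 0.0774), which left 2 members called in place of 4. Fbln5 was at 0.08 (SE 0.37, adjusted p 0.908) against healthy cells, and Fbln1, at 0.79, was called only without healthy replicate 3 (1.25, adjusted p 0.0326). The median of the members was 0.87, against 0.00 over all genes. Of the portal fibroblast markers, 3 of 10 were called higher and 1 lower, at 731 to 929 CPM in sum, and their part was not tested.

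At acute 7 d, 4 of 9 members were called higher, against 9.23% of all genes, and 1 of 9 lower, against 5.64%. Fbln2 rose by 4.47 (SE 0.53, adjusted p 2.46e-06), Mfap4 by 3.43 (SE 0.66, adjusted p 0.00058), Eln by 1.80 (SE 0.29, adjusted p 7.25e-05) and Fbln1 by 1.79 (SE 0.39, adjusted p 0.00189). Efemp1 remained lower, at -1.42 (SE 0.20, adjusted p 1.64e-05). The macrophage markers were highest in these 4 libraries, with 8 of 10 called higher and a summed level of 4085 to 10266 CPM against 131 to 541 CPM in healthy libraries. Of the portal fibroblast markers, 5 of 10 were called higher and 0 lower, at 888 to 1142 CPM in sum. The part of either list was not tested.

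In chronic 24 h HSCs, 1 day after the last of 8 injections, Fbln2, Mfap4 and Fbln1 were called higher (3 of 9, against 11.2% of all genes), and Fbln5 and Efemp1 lower (2 of 9, against 8.11%). Fbln2 rose by 5.48 (SE 0.55, adjusted p 1.08e-07) and Mfap4 by 3.26 (SE 0.65, adjusted p 0.000553), while Fbln5 fell by 3.32 (SE 0.41, adjusted p 1.42e-06) and Efemp1 by 2.32 (SE 0.20, adjusted p 1.44e-08). Among the libraries of higher depth alone, 2 of them in chronic 24 h, Fbln2, Mfap4, Fbln5 and Efemp1 kept their calls and Fbln1 did not (adjusted p 0.0764), while Eln was called (1.14, adjusted p 0.0214). Fbln1 (1.18, adjusted p 0.0242) lost its call without healthy replicate 1, healthy replicate 4 or chronic 24 h replicate 2, with adjusted p values of 0.0717 to 0.0831. Eln was just under 2-fold, at 0.98 (SE 0.28, adjusted p 0.00999), and passed without healthy replicate 2 or 3 or chronic 24 h replicate 1, at 1.03 to 1.13. Of the portal fibroblast markers 6 of 10 were called higher and 1 lower, with a summed level of 1223 to 1293 CPM, and of 7 vascular smooth muscle markers tested 4 were called higher, at 204 to 408 CPM in sum against 191 to 232 CPM in healthy libraries. The part of either list in the result was not tested.

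At chronic 72 h, Mfap4 rose by 5.28 (SE 0.72, adjusted p 1.59e-05), Fbln2 by 2.29 (SE 0.49, adjusted p 0.00175), Fbln1 by 1.66 (SE 0.39, adjusted p 0.00412) and Eln by 1.54 (SE 0.28, adjusted p 0.000429). These were the 4 of 9 called higher, against 7.88% of all genes. Efemp1, at -1.05 (SE 0.20, adjusted p 0.000454), was the 1 of 9 called lower, against 4.2%. It fell short of 2-fold without healthy replicate 1 (-0.97) or chronic 72 h replicate 2 (-0.997). Fbln5 stood at 0.56 (SE 0.37, adjusted p 0.315). The median sum of portal fibroblast markers was highest here, at 1398 CPM, with 8 of 10 called higher and 0 lower. Replicates 1 and 2, at 1085 and 1105 CPM, lay below the chronic 24 h libraries (1223 to 1293 CPM), and replicates 3 and 4 above them. Mesothelial markers summed to 100.5 to 151 CPM, with 1 of 6 tested called higher and 0 lower. The part of either list was again not tested.

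After 14 d without injection, 2 of 9 members were still called higher than in healthy HSCs, against 4.55% of all genes. They were Mfap4, at 3.03 (SE 0.65, adjusted p 0.00454), and Fbln2, at 2.36 (SE 0.49, adjusted p 0.00357). No member was called lower, against 1.17% of all genes, while Efemp1 was at -0.69 (SE 0.20, adjusted p 0.0274), below 2-fold but without overlap. Eln (-0.09, SE 0.28) and Fbln5 (-0.03, SE 0.37) had adjusted p values of 0.893 and 0.979. Fbln1, at 1.21 (adjusted p 0.056), was called without healthy replicate 3 or chronic 14 d replicates 1 or 4, with adjusted p values of 0.0135 to 0.0451. Lower depth marks each chronic 14 d library and no healthy one. With depth class as a term, which chronic 24 h and 72 h allow to be estimated, Fbln2 stood at 2.95 (adjusted p 0.0128) and Mfap4 at 3.51 (adjusted p 0.0252). Of the portal fibroblast markers, 6 of 10 were called higher and 1 lower, with a summed level of 594 to 1006 CPM, and their part was not tested.

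Without healthy replicate 4, Fbn1 stood at 0.70 in chronic 24 h (adjusted p 0.0109), 0.79 in acute 72 h (adjusted p 0.0073) and -0.65 in chronic 14 d (adjusted p 0.0325) against the 3 healthy libraries left, each below 2-fold. With that library the same changes were 1.11 (adjusted p 0.11), 1.20 (adjusted p 0.103) and -0.25 (adjusted p 0.833). In the other 3 groups Fbn1 went from 0.55 to 0.15 (acute 24 h), from 0.76 to 0.36 (acute 7 d) and from 0.15 to -0.25 (chronic 72 h) once the library was left out, with adjusted p values of 0.2 to 0.633 without it.

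**Figure D3:**
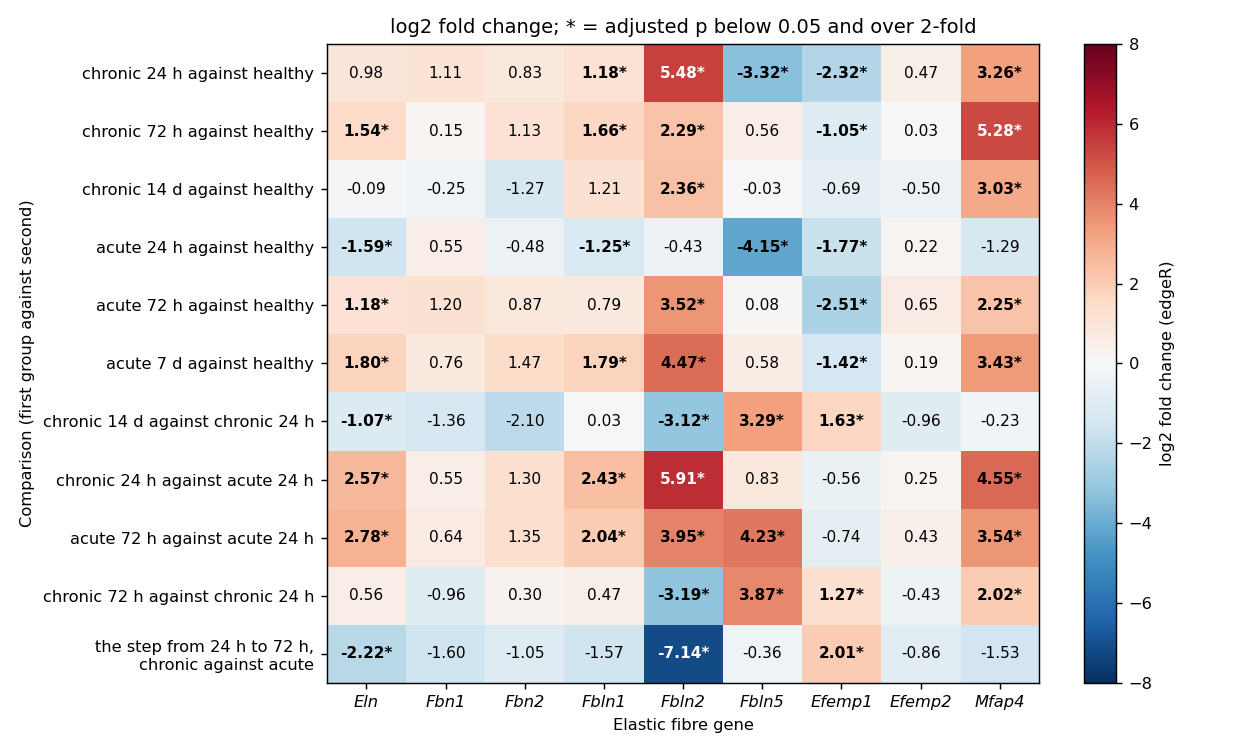
Cells give the edgeR log2 fold change of 9 elastic fibre genes (columns) in 11 comparisons (rows), coloured from -8 to 8, with an asterisk at each call. Fbln2 is called higher than healthy in 5 of 6 comparisons and Efemp1 lower in 5 of 6, and Fbn1, Fbn2 and Efemp2 carry no asterisk.

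Between the first and the last chronic time, Fbln5 and Efemp1 rose and Fbln2 fell. In chronic 14 d against chronic 24 h, Fbln5 rose by 3.29 (SE 0.41, adjusted p 4.1e-06) and Efemp1 by 1.63 (SE 0.20, adjusted p 3.78e-06), which are 2 of 9 against 6.65% of all genes. Fbln2 fell by 3.12 (SE 0.49, adjusted p 7.38e-05) and Eln by 1.07 (SE 0.28, adjusted p 0.00774), which are 2 of 9 against 6.11%. The call for Eln was lost when chronic 24 h replicate 4 (-0.97) or replicate 4 of chronic 14 d (-0.90) was left out. With depth class as a term it was lost as well (-0.84, adjusted p 0.0542). The same held in edgeR with scaling by library size alone (-0.90, adjusted p 0.0206) and with only the groups compared (-0.996, adjusted p 0.0071). Efemp2, at -0.96, passed 2-fold when chronic 24 h replicate 1 (-1.07) or replicate 2 of chronic 14 d (-1.12) was left out. Among the libraries of lower depth alone, 2 in chronic 24 h and 4 in chronic 14 d, Eln stood at -0.86 (adjusted p 0.0384) and Fbn1 at -1.24 (adjusted p 0.0164). In the model of all 27 libraries Fbn1 was at -1.36 (SE 0.52, adjusted p 0.0633), not called but without overlap. It was called in an edgeR fit of only the groups compared (-1.27, adjusted p 0.0042) and in DESeq2 (-1.30, adjusted p 0.0407).

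In chronic 72 h against chronic 24 h, Fbln5 rose by 3.87 (SE 0.42, adjusted p 2.13e-06), Mfap4 by 2.02 (SE 0.62, adjusted p 0.0276) and Efemp1 by 1.27 (SE 0.20, adjusted p 0.000112), 3 of 9 against 4.72% of all genes. Fbln2 fell by 3.19 (SE 0.49, adjusted p 0.000101), 1 of 9 against 3.65%. The call for Mfap4 was lost without chronic 24 h replicate 1 or 3 or chronic 72 h replicate 4, with adjusted p values of 0.0684 to 0.0822. Both groups hold 2 libraries of each depth. Among the higher-depth ones Mfap4 was at 2.34 (adjusted p 0.112), and among the lower-depth ones it was at 1.64 (adjusted p 0.341) and Efemp1 at 1.02 (adjusted p 0.101).

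**Figure D4:**
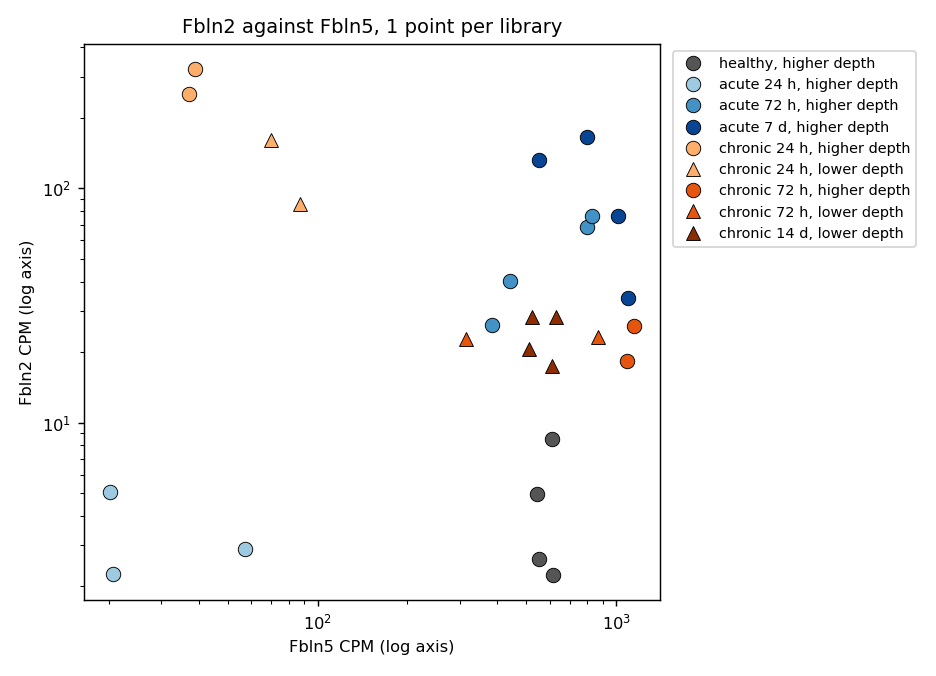
Fbln2 CPM (y) is plotted against Fbln5 CPM (x), both on log axes, with 1 point per library, colour for the group and shape for the depth of the library (circles higher, triangles lower). The chronic 24 h libraries sit at the upper left, with Fbln2 at 85.4 to 323 CPM and Fbln5 at 37.2 to 87.1 CPM, and the healthy libraries at the lower right, with Fbln2 at 2.24 to 8.51 CPM.

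The ratio of these fibulins within a library does not depend on its scaling, and, being uncorrected for length, serves to compare libraries and not genes. Fbln2 CPM was 0.367% to 1.39% of Fbln5 CPM in healthy libraries and 98.1%, 231%, 679% and 830% in chronic 24 h replicates 1 to 4. It was 1.69% to 7.2% in chronic 72 h and 2.85% to 5.44% in chronic 14 d libraries. Chronic 24 h stood clear of all other groups, the nearest of which was acute 24 h at 5.08% to 25.1%.

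The same 24 h interval after 1 or 8 injections gave different levels. In chronic 24 h against acute 24 h, 4 of 9 members were called higher, against 10.9% of all genes, and 0 of 9 lower, against 3.05%. Fbln2 was higher by 5.91 (SE 0.64, adjusted p 9.71e-07), Mfap4 by 4.55 (SE 0.79, adjusted p 0.000243), Eln by 2.57 (SE 0.33, adjusted p 6.79e-06) and Fbln1 by 2.43 (SE 0.46, adjusted p 0.000527). Fbln5 was low in both groups and differed by 0.83 (SE 0.41, adjusted p 0.16), rising to 1.51 (adjusted p 0.0207) without acute 24 h replicate 3. Efemp1 differed by -0.56 (SE 0.21, adjusted p 0.0593).

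Between 24 h and 72 h after a single injection, 5 of 9 members rose, against 11.2% of all genes, and 0 of 9 fell, against 3.76%. The changes were 4.23 for Fbln5 (SE 0.48, adjusted p 1.39e-06), 3.95 for Fbln2 (SE 0.59, adjusted p 3.47e-05), 3.54 for Mfap4 (SE 0.76, adjusted p 0.00141), 2.78 for Eln (SE 0.33, adjusted p 2.66e-06) and 2.04 for Fbln1 (SE 0.46, adjusted p 0.00193). Efemp1 stood at -0.74 (SE 0.21, adjusted p 0.0113), below 2-fold. The interaction term asks whether this step differed after the chronic course. It did for Fbln2, by -7.14 (SE 0.77, adjusted p 3.92e-06), and for Eln, by -2.22 (SE 0.42, adjusted p 0.00128), which are 2 of 9 against 6.46% of all genes called lower. Efemp1 differed by 2.01 (SE 0.29, adjusted p 7.67e-05), which is 1 of 9 against 2.28% called higher. For Fbln5 the difference between the steps was -0.36 (SE 0.55, adjusted p 0.763). Fbn1 differed by -1.60 (SE 0.76, adjusted p 0.196) and was not called. An edgeR fit of only the groups compared did call it (-1.59, adjusted p 0.00059).

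Of the 5 lysyl oxidases, which cross-link elastin, 3 were called higher than healthy in chronic 24 h (11.2% of all genes), 3 in chronic 72 h (7.88%), 1 in chronic 14 d (4.55%), 2 in acute 24 h (9.41%), 2 in acute 72 h (8.23%) and 3 in acute 7 d (9.23%). Lox, the founding lysyl oxidase, was called higher than healthy in all 6 comparisons, from a mean of 7.41 CPM in healthy to 631 CPM in chronic 24 h libraries (log2 change 6.41, SE 0.53, adjusted p 6.36e-09). Loxl2 was called higher in 5 of the 6 and Loxl1 in 3 of the 6. Loxl1, which also acts on elastin, rose by 1.86 in chronic 24 h, from 147 to 532 CPM. Loxl3 was called in no comparison. Against healthy HSCs, Loxl4 was called only in chronic 72 h, where it was lower (-1.35, adjusted p 0.000193). It was also called lower in chronic 24 h against acute 24 h (-1.10). In chronic 14 d against chronic 24 h, Lox fell by 4.73, Loxl2 by 2.67 and Loxl1 by 1.69. At acute 24 h Lox (4.03) and Loxl2 (2.03) were called higher while Eln was called lower.

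Of 13 listed microfibril partners, 11 were tested. Against healthy HSCs, 5 were called higher and 2 lower in chronic 24 h (11.2% and 8.11% of all genes), 6 and 2 in chronic 72 h (7.88% and 4.2%), and 3 and 1 in chronic 14 d (4.55% and 1.17%). The counts were 4 and 1 in acute 72 h (8.23% and 4.33%) and 5 and 2 in acute 7 d (9.23% and 5.64%). In acute 24 h they were 1 and 2, near the shares of all genes (9.41% and 12.5%). Ltbp2, a latent TGF-beta binding protein family member that binds fibrillin and Fbln5, rose from 6.14 to 281 CPM in chronic 24 h (log2 change 5.52, SE 0.54, adjusted p 7.53e-08) and was at 3.53 CPM in acute 24 h libraries. Mfap2, a microfibril protein that binds fibrillin, was at 18.3 CPM in healthy, 120 CPM in chronic 72 h and 20.9 CPM in chronic 14 d libraries. Ltbp4, which works with Fbln5 in elastin assembly, went the other way, from 1768 CPM in healthy to 405 CPM in acute 72 h libraries (-2.12, SE 0.24, adjusted p 1.18e-06), and was called lower in 5 of 6 comparisons with healthy cells. Emilin2, an elastin-microfibril interface protein, rose in 5 of the 6, while Emilin1, at 3215 CPM in healthy libraries, was called in none. The median change of the 11 was 0.74 in chronic 24 h and 1.09 in chronic 72 h, against -0.03 and 0.00 over all genes.

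**Figure D5:**
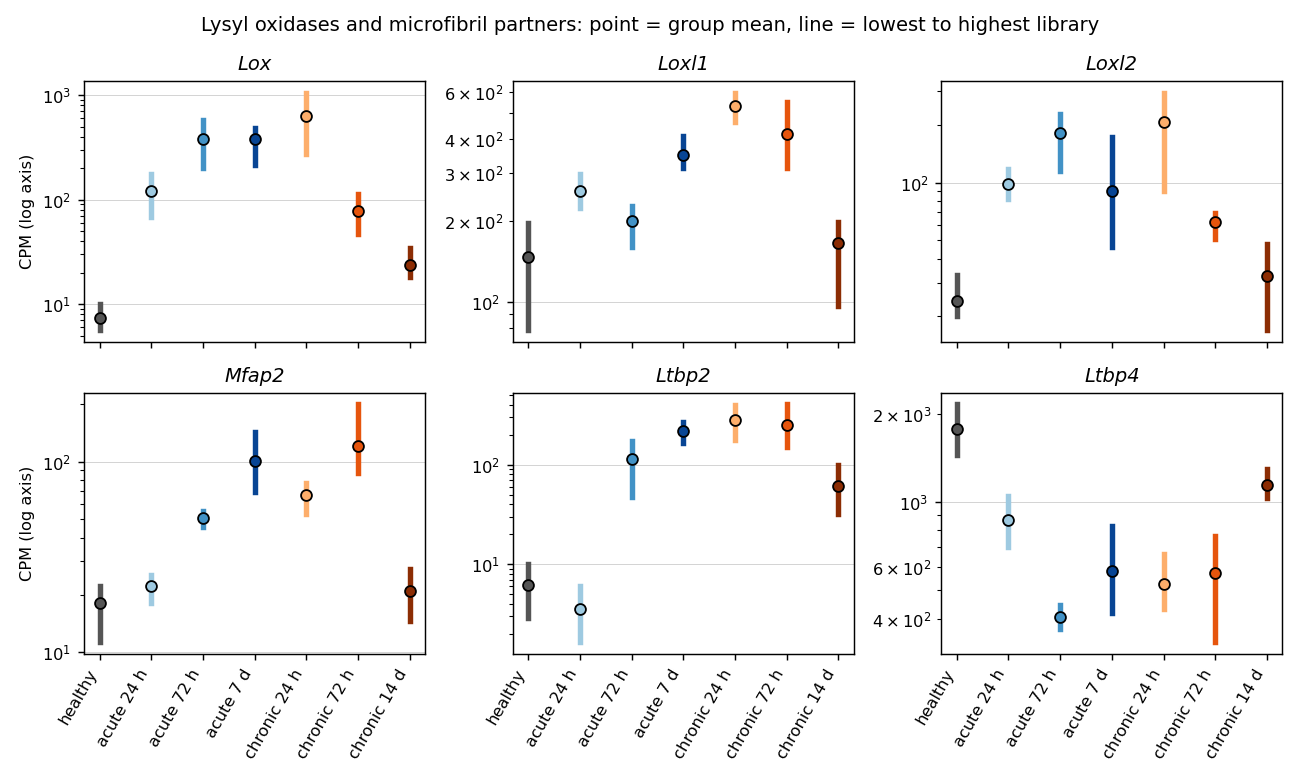
Group means (points) and the range from lowest to highest library (lines), in CPM on log axes, are shown for 3 lysyl oxidases and 3 microfibril partners over the 7 groups. Lox, Loxl2 and Ltbp2 are highest in chronic 24 h, Mfap2 in chronic 72 h, and Ltbp4 in healthy HSCs.

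Of the 8 listed ADAMTS and ADAMTS-like proteins that act on microfibrils, 7 were tested. None was called higher than healthy in a chronic group, where 11.2%, 7.88% and 4.55% of all genes were at 24 h, 72 h and 14 d. At these times 3, 1 and 1 were called lower, against 8.11%, 4.2% and 1.17% of all genes. Against healthy HSCs, acute 24 h had 0 called higher and 2 lower (9.41% and 12.5% of all genes). Acute 7 d had 0 and 1 (9.23% and 5.64%), which for 7 genes is near those shares. Acute 72 h had 2 of each (8.23% and 4.33%), with Adamtsl2 and Adamtsl3 the higher ones. Adamtsl4, a fibrillin-binding protein, was called lower in all 6 comparisons with healthy HSCs. It went from 225 CPM in healthy to 22.9 CPM in chronic 24 h libraries (-3.30, SE 0.28, adjusted p 9.66e-09) and 66.9 CPM in chronic 14 d. Thsd4, also called Adamtsl6 and known to promote fibrillin-1 assembly, fell by 1.98 in acute 24 h and by 2.01 in chronic 24 h.

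For each member the genes with the most similar levels were taken by Pearson's r of log2 CPM over the 27 libraries, which share group structure and depth. Mfap4 was most like Dpt (r = 0.94), dermatopontin, which is among the portal fibroblast markers listed here and rose from 32.9 CPM in healthy to 494 CPM in chronic 72 h libraries. Next came Gpc3 and Cpz (r = 0.93 for both). Eln was most like Cercam (r = 0.95), Fbln1 like Fmod, the fibril-binding proteoglycan fibromodulin (r = 0.96), Efemp1 like Cbx7 (r = 0.95), Fbln2 like Slc39a11 (r = 0.92) and Fbln5 like Rdm1 and Nr1h5 (r = 0.94 and 0.93). Among the members themselves the highest r was between Fbln1 and Mfap4, at 0.90, followed by Eln and Fbln1, at 0.85, and the lowest was between Fbln2 and Efemp1, at -0.63.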

How the data were processed

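RNA of sorted mouse HSCs, 27 libraries with 1 column each, was sequenced by the authors as single-end reads of 75 bp. Per the labels and the study's methods, quality was assessed in FastQC, STAR served for alignment (GRCm38.p6) and StringTie for assembly, and the authors deposited raw counts per Ensembl gene. How assemblies became counts, tool versions, the annotation release and the strand setting are not given in the sources used here.

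All 27 columns were matched to labels, with 0 left over. GENCODE M21 holds 53274 of the 53379 gene IDs. In R 4.3.3, genes passing edgeR's filterByExpr by group (18758) entered a robust quasi-likelihood fit in edgeR 4.0.16 with a mean per group, after TMM scaling. SE is the change divided by the square root of F, log2 CPM used a prior count of 2, and no library was omitted. The study describes its repeats as separate experiments, and libraries of a group differed beyond sampling noise (chi-square per degree of freedom of 17.6 to 97.6 over 39 pairs). The procedure was tested on simulated counts. Alternatives were other scalings, DESeq2 1.42.0, other filters, thresholds and sample sets, a replicate block, depth as a term, and leaving out each library. Fits of lower-depth libraries alone were added after seeing the data.

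The 10 members, the 5 lists of related genes (13 microfibril partners, 5 lysyl oxidases, 8 ADAMTS proteins, 10 elastin-degrading proteases and 10 receptors) and the 8 lists of cell type markers were chosen with earlier results of these data known. All members were named, along with genes of those lists and the 3 genes most like each member in level. Promoter windows came from RefSeq (GRCm38.p6).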

Additional observations from a re-analysis of the deposited data

Results flagged for a closer look

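In 54 sets of values (9 genes in the 6 groups of 4), 6 had 1 library far from the rest by Dixon's criterion, where chance gives about 1 in 20. Fbn1 in healthy replicate 4 was at 2.95 CPM, with the other healthy libraries between 117 and 132 CPM. Eln in chronic 14 d replicate 4 was at 67.6 CPM, against 97.4 to 102 CPM in the others. Efemp1 was high in acute 72 h replicate 2 (141 CPM, others 105 to 109 CPM), in acute 7 d replicate 4 (376 CPM, others 194 to 209 CPM) and in chronic 24 h replicate 1 (194 CPM, others 107 to 112 CPM). Efemp2 in chronic 24 h replicate 1 was low, at 154 CPM, with the others between 210.4 and 221 CPM.

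The step from 24 h to 72 h differed between the chronic and the acute course, by the interaction term in edgeR, for 3 members. The chronic minus acute difference in log2 change was -7.14 for Fbln2, -2.22 for Eln and 2.01 for Efemp1. These calls come from the model of all 27 libraries. In an edgeR fit of only the groups compared, Fbn1 was also called, at -1.59 (adjusted p 0.00059).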

How the results depend on the processing

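Numbers of members called stayed within 1.5 times the reported number under every alternative but those named next, and no called member changed sign. In acute 72 h against healthy, 4 members were called, but 2 in a fit of only those groups, where Eln (adjusted p 0.0626) and Mfap4 (adjusted p 0.0537) lost their calls; fewer samples enter that fit. In chronic 72 h against chronic 24 h, 4 were called, but 2 among lower-depth libraries alone, which leaves 2 libraries a group. Leaving out 1 library gave 2 to 5 calls in acute 72 h against healthy (2 without acute 72 h replicate 4), 3 to 4 in acute 24 h, 5 to 5 in acute 7 d, 4 to 6 in chronic 24 h, 4 to 5 in chronic 72 h and 2 to 3 in chronic 14 d against healthy. It gave 3 to 5 in chronic 14 d and 3 to 4 in chronic 72 h against chronic 24 h, 4 to 5 in chronic 24 h and 5 to 5 in acute 72 h against acute 24 h, and 3 to 3 for the difference between steps. Over the changes of single members, 1049 kept their side of the threshold under the other settings, 18 gained a call and 18 lost one, and with 1 library left out the numbers were 802, 10 and 16.

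Same-numbered libraries did not deviate together, with correlations of -0.114 to 0.151, and no comparison had every pair over 0.1, so the numbers were not taken to pair the samples. In chronic 24 h and chronic 72 h they do go with depth, replicates 1 and 2 being the lower-depth ones. With the replicate block, calls went from 4 to 3 in acute 24 h against healthy, where Fbln1 was at -1.14 (adjusted p 0.0635), from 4 to 5 in chronic 14 d against chronic 24 h, where Efemp2 passed 2-fold (adjusted p 0.0127), and stayed at the same number elsewhere.

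No fit of higher-depth libraries alone was run for chronic 14 d, which has none. Depth limits Mfap5 and Fbn2 most, which have few counts.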

Other observations

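Proteases able to degrade elastin differed in number called between groups. Of 10 listed, 7 were tested, and 5, 6 and 4 were called higher in chronic 24 h, 72 h and 14 d (11.2%, 7.88% and 4.55% of all genes) with 0 lower, 3 and 6 in acute 72 h and 7 d (8.23% and 9.23%) with 0 lower, and 1 higher and 1 lower in acute 24 h (9.41% and 12.5%). Mmp12, macrophage elastase, went from a mean of 1.27 CPM in healthy to 120 CPM in chronic 24 h libraries (log2 change 6.54, SE 0.83, edgeR adjusted p 2.57e-06). Ctss, a cathepsin of macrophages, went from 20.96 CPM to 611 CPM in acute 7 d (4.86, SE 0.55). Summed macrophage markers were at 131 to 541 CPM in healthy, 471 to 3201 CPM in chronic 24 h and 4085 to 10266 CPM in acute 7 d libraries, and their part was not tested. Ctsk, cathepsin K, went from 16.9 to 139 CPM in chronic 72 h (3.05, SE 0.26). Mmp2, a gelatinase, was at 365 CPM in healthy, 95.0 CPM in acute 24 h (-1.94, SE 0.26) and 1626 CPM in chronic 72 h libraries (2.16, SE 0.23). Mmp9 had 0 counts in every healthy library and a mean of 6.51 CPM in chronic 24 h.

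Among 10 listed receptors of elastic fibre proteins, 9 were tested. In acute 24 h, 4 were called higher and 1 lower than healthy, where 9.41% and 12.5% of all genes were. The counts in the other groups were 2 and 1 in chronic 24 h (11.2% and 8.11%), 1 and 1 in chronic 72 h (7.88% and 4.2%), 1 and 0 in acute 72 h (8.23% and 4.33%), 0 and 1 in acute 7 d (9.23% and 5.64%) and 0 and 1 in chronic 14 d (4.55% and 1.17%). Itga8, an integrin subunit of HSCs, was at 385 CPM in healthy, 46.8 CPM in acute 24 h (-3.04, SE 0.49, adjusted p 4.1e-05) and 989 CPM in chronic 72 h libraries (1.36, SE 0.41). Itga5, of the fibronectin receptor, went from 45.9 to 453 CPM in acute 24 h (3.30, SE 0.32) and 371 CPM in chronic 24 h (3.02, SE 0.30). Sdc4, a heparan sulphate proteoglycan, went from 116 to 1075 CPM in acute 24 h (3.22, SE 0.33).

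Of the other cell type markers, those of vascular smooth muscle summed to 191 to 232 CPM in healthy and 452 to 707 CPM in acute 24 h libraries. Over all libraries, sinusoidal endothelial markers summed to 31.4 to 591 CPM, hepatocyte markers to 57.4 to 7692 CPM and cholangiocyte markers to 4.35 to 143 CPM.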
